A study of Homo sapiens with 24 samples.

Results

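The genes described here are the human translation factors: every protein-coding gene whose RefSeq symbol starts with EIF, EEF or PABPC, together with the release factor genes ETF1, GSPT1 and GSPT2. The rule names 82 genes, of which 60 had a peak in at least 1 of 10 peak lists, among 9319 genes with a peak in all. The members were chosen by symbol and not by any measured value. The lists come from immunoprecipitation of RNA with an antibody against N1-methyladenosine (m1A), in HEK293T, a cell line derived from human embryonic kidney. There were 5 conditions, with 2 lists each. WT was wild-type HEK293T without treatment, and KO was HEK293T in which ALKBH3, an enzyme that removes m1A from RNA, had been knocked out. UT was the untreated wild-type control of the stress experiment, H2O2 was wild-type cells given 50 µM hydrogen peroxide for 30 min, and Starve was wild-type cells washed and kept in serum-free medium for 16 h. For WT and KO there was also immunoprecipitated RNA treated with a demethylase. The labels do not say whether KO was 1 clone, nor whether replicates came from separate cultures, so the spread between replicates may be technical.

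Protein synthesis starts when eIF2 brings the initiator tRNA to the small ribosomal subunit, the eIF4 factors open the capped 5′ end of the mRNA, and eIF3, eIF1, eIF1A and eIF5 guide the search for the start codon. Elongation factors then deliver aminoacyl-tRNAs and move the ribosome along, release factors free the finished protein, and poly(A)-binding proteins join the 3′ end to the cap-binding complex. N1-methyladenosine carries a methyl group on the face of the base that pairs, so it blocks base pairing. On mRNA, m1A has been described mainly in the 5′ part of transcripts.

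Many mRNAs of the translation machinery begin with a 5′ terminal oligopyrimidine tract, a cytosine followed by an unbroken run of pyrimidines. The gene starts below are shown because they set members with such a run beside the members with the most often called peaks. Sequences are from RefSeq on GRCh38.p14, read on the strand of the gene, from 10 bases before the annotated start to the 20th base from it. Capitals mark a run of 5 or more pyrimidines that begins with C at the start.
EEF2: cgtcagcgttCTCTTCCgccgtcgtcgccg
EEF1A1: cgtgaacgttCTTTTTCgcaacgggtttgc
EIF3F: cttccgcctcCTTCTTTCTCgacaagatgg
EIF2S3: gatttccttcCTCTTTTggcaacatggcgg
EIF2D: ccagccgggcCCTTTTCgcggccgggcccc
EIF5A: tgggaacccgaccacactagcgcgctagaa
EIF1: ccgcccctctgccccagtcactgagccgcc
EIF1B: cattttgtgcgagaagccgcagcgccgcct
EIF3J: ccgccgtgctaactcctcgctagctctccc

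These stretches lie at chr19:3985444-3985473 on the minus strand for EEF2, chr6:73521013-73521042 on the minus strand for EEF1A1, and chr11:7987327-7987356 on the plus strand for EIF3F. EIF2S3 is at chrX:24054946-24054975 (plus) and EIF2D at chr1:206612446-206612475 (minus). EIF5A is at chr17:7306989-7307018 (plus), EIF1 at chr17:41688875-41688904 (plus), EIF1B at chr3:40309697-40309726 (plus) and EIF3J at chr15:44537137-44537166 (plus). A start sequence was at hand for 65 of the 82 members. The run occurred in 12 of these 65 (18.5%) and in 729 of 15843 protein-coding genes (4.60%). Of the 12 members with the run, 4 (EEF2, EIF2D, EIF2S3 and EIF3F) had a region near the transcript start in 2 or more lists. The same held for 24 of the 53 members without the run. EIF5A, EIF1, EIF1B and EIF3J, whose starts lack the run, had the near-start regions called in the most lists. The median GC content of the first 50 bases was 67% in members with a near-start region in 2 or more lists, against 64% in the other members and 64% in protein-coding genes. A match of letters in this window is a description of the sequence and says nothing of its use in these cells.

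Peaks on translation factors were called in every list. Member genes with a peak numbered 18 and 21 in WT, 24 and 24 in KO, 20 and 28 in UT, 26 and 20 in H2O2, and 31 and 38 in Starve. As a share of the 82 members this was 21.95% to 46.3% per list, whereas 6.11% to 23.2% of all protein-coding genes had a peak. The share was higher among members in each of the 10 lists. The coverage at the summit, which the files call the pileup, also had a higher median on member peaks than on all peaks in each list, for example 268 against 68 in WT list 1 and 63 against 51 in Starve list 1. The part that transcript abundance plays in the difference of shares was not tested. Both Starve lists held more member genes than either UT list, and both KO lists more than either WT list, while the H2O2 and UT counts overlapped. None of these differences passed the two-sided exact permutation test, whose smallest possible p with 2 lists against 2 is 0.333: p was 0.333 for KO against WT and for Starve against UT, and 1 for H2O2 against UT. List length differed as well: in all, 11362 and 8791 peaks were called in Starve against 7871 and 9295 in UT.

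**Figure D1:**
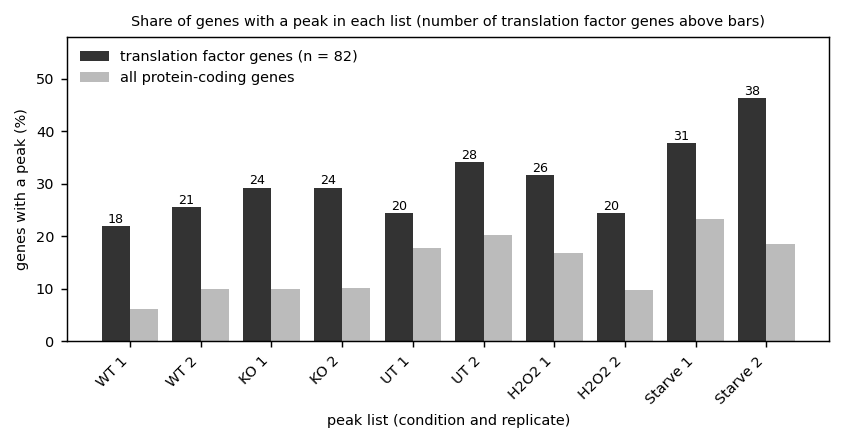
Percent of the 82 translation factor genes (dark bars) and of all protein-coding genes (light bars) with at least 1 peak, for each of the 10 peak lists; numbers above the dark bars count member genes. The dark bar is the taller one in every list, from 21.95% in WT list 1 to 46.3% in Starve list 2.

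Over the lists together, members were called repeatedly more often than genes at large. A peak in 5 or more lists was held by 25 of the 60 members with a peak (41.7%), against 24.4% of all genes with a peak, and a peak in 1 list by 10 members (16.7%), against 28.7%. The 10 lists differed in length and the members' median pileup was higher, so these shares are descriptions. Replicates shared 65.5% of the member genes called in either list in KO, 46.8% in Starve, 44.4% in WT, 24.3% in H2O2 and 23.1% in UT. The same share over all genes was 54.6%, 34.8%, 28.4%, 23.0% and 31.2%. UT, the control of both stress comparisons, held 39 members in either list but 9 in both.

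**Figure D2:**
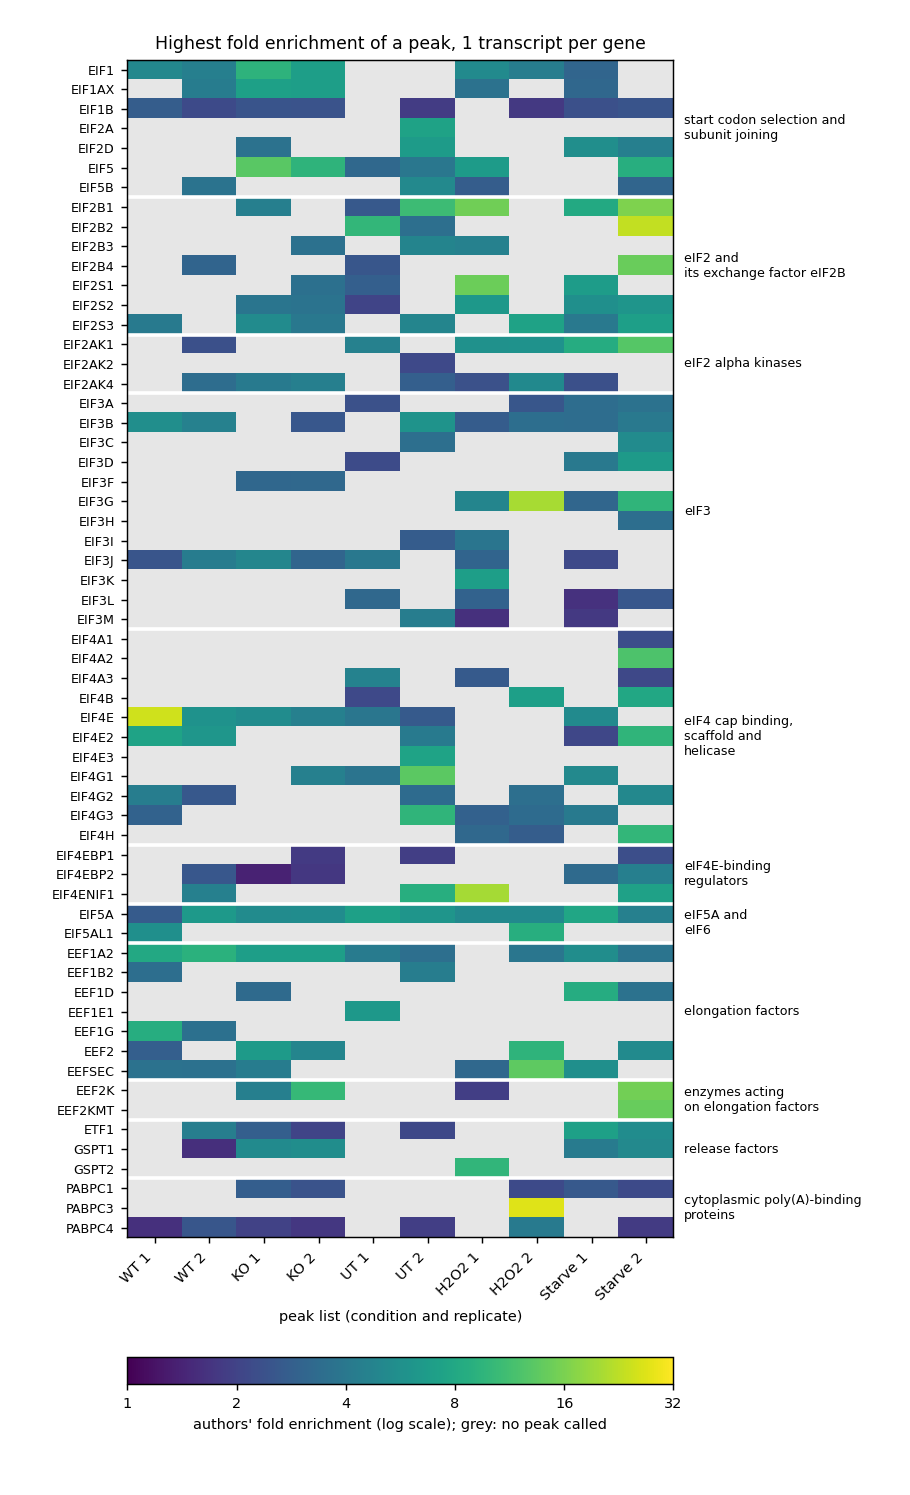
Highest fold enrichment of a peak (colour, log scale; the authors' value, relative to each list's own background) for the 60 translation factor genes with a peak, in rows grouped by factor complex, across the 10 peak lists in columns; grey means that no peak was called on the transcript shown. EIF5A is coloured in all 10 columns, EEF1A2 in 9, and 35 of the 60 genes had a peak in fewer than 5 lists.

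Of the 9 genes for factors that select the start codon, 7 had a peak, against 60 of all 82 members. A peak in both KO lists was held by 4 of the 9, against 2 in both WT lists. Over all genes, 1461 had a peak in both KO lists against 729 in both WT lists. EIF1, which guards start codon recognition, had its recurrent region at nt 38 to 193 of NM_005801. Folds of 5.05 and 4.48 were listed for WT, 9.38 and 6.97 for KO, 5.26 and 4.32 for H2O2, and 3.11 for Starve list 1. No region of EIF1 was called there in either UT list or in Starve list 2. A further EIF1 region, at nt 903 to 1002, was called in Starve list 1 alone, with a fold of 2.74. EIF1B, a close relative of EIF1, had a region at nt 35 to 263 of NM_005875 in 8 lists, with folds of 1.78 to 2.79, and was missed in UT list 1 and H2O2 list 1. EIF1AX, which encodes the scanning factor eIF1A, had a region at nt 32 to 228 of NM_001412 in 5 lists, with folds of 4.27 in WT list 2, 7.21 and 6.99 in KO, 2.55 in H2O2 list 1 and 3.18 in Starve list 1. EIF5, the protein that triggers GTP hydrolysis on eIF2, had a peak in 8 lists, but no region of it recurred in more than 2. EIF1AY and EIF1AD had no peak.

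The fold of a peak is the authors' own value and describes that peak against the background of its own list, so a higher fold in one condition is not read as more m1A. An uncalled region has no value in a list, and does not mean that the RNA was unmethylated. EIF1 and EIF1B are similar in sequence, as are EEF1A1 and EEF1A2, EIF3C and EIF3CL, EIF5A and EIF5AL1, PABPC1 and PABPC3, and EIF2S3 and EIF2S3B. How reads that fit both genes of such a pair were placed is not stated, so values for these genes are uncertain.

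Of the eIF2 subunits and the subunits of eIF2B, the factor that reloads eIF2 with GTP, 7 of 9 genes had a peak. All 7 were called in a UT list and 2 in a WT list, where over all genes 6043 and 2571 were called. EIF2S2, the beta subunit, had a region at nt 23 to 209 of NM_003908 in 5 lists: folds were 3.83 and 3.73 in KO, 2.04 in UT list 1, 6.33 in H2O2 list 1 and 5.60 in Starve list 1. EIF2S1, the alpha subunit that stress kinases phosphorylate, had a region at nt 47 to 233 of NM_004094 in 4 lists, with folds of 3.61 in KO list 2, 2.87 in UT list 1, 14.6 in H2O2 list 1 and 5.49 in Starve list 1. EIF2B1, a regulatory subunit of eIF2B, had a region at nt 118 to 385 of NM_001414. Its folds were 4.48 in KO list 1, 10.8 in UT list 2, 15.0 in H2O2 list 1, and 8.18 and 16.5 in Starve. No EIF2B1 peak was called in WT. EIF2S3, the gamma subunit, had peaks in 7 lists, spread over 6 regions of which the most frequent lay in 3 lists. EIF2B5 and EIF2S3B had no peak.

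Among the 4 kinases that phosphorylate eIF2 alpha, EIF2AK1 and EIF2AK4 were called in 6 and 7 lists, EIF2AK2 in 1 and EIF2AK3 in none. EIF2AK1, the heme-regulated kinase, had a region at nt 46 to 278 of NM_001134335. Its folds were 2.34 in WT list 2, 4.58 in UT list 1, 5.86 in H2O2 list 2, and 8.58 and 4.53 in Starve. EIF2AK4 (GCN2), which senses amino acid shortage, had a region at nt 26 to 208 of NM_001013703. Its folds were 3.46 in WT list 2, 4.17 and 4.44 in KO, and 2.35 and 5.19 in H2O2. That region was called in no UT and no Starve list.

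Subunits of eIF3, the scaffold on the small ribosomal subunit, were called widely but seldom recurrently. Of 14 genes 12 had a peak, and 2 had one in 5 or more lists. In at least 1 list of UT, H2O2 and Starve 8, 8 and 9 of the subunits had a peak, against 2 in WT and 4 in KO. Over all genes these counts were 6043, 4479 and 6437, against 2571 in WT and 2678 in KO. EIF3J, a loosely bound subunit, had a region at nt 49 to 258 of NM_001284336 in 7 lists. Its folds were 2.50 and 4.31 in WT, 4.93 and 3.08 in KO, 4.01 in UT list 1, 3.06 in H2O2 list 1 and 2.14 in Starve list 1. EIF3B, a core subunit, had a region at nt 47 to 405 of NM_001037283 in 6 lists, with folds of 5.54 and 4.60 in WT, 2.55 in KO list 2, 3.48 in H2O2 list 2, and 1.87 and 3.61 in Starve. EIF3G, an RNA-binding subunit, was called in H2O2 and Starve lists: its region at nt 6 to 230 of NM_003755 had folds of 3.94 and 20.3 in H2O2 and of 3.12 and 9.66 in Starve. EIF3E and EIF3CL had no peak.

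In the eIF4 group, which binds the cap and unwinds the 5′ end, 11 of 12 genes had a peak and 4 had one in both UT lists. EIF4E, the cap-binding protein, had its most frequent region at nt 1506 to 1699 of NM_001130679. Folds there were 24.8 and 5.87 in WT, 5.38 and 4.52 in KO and 3.88 in UT list 1. How deep this lies depends on the transcript. On NM_001130678 a region lay at nt 183 to 344, with folds of 9.49 in WT list 1, 2.15 in KO list 1 and 2.96 in UT list 2. A peak of H2O2 list 1 with a fold of 5.28 had its summit at nt 580 of NM_001130678 and at nt 1923 of NM_001968. The fold of 24.8 was the highest of any member peak in WT list 1, and the other WT list gave 5.87 for the same region. EIF4E2, a cap-binding relative that represses translation, had a region at nt 111 to 253 of NM_001276336. Its folds were 7.48 and 6.18 in WT and 2.08 and 5.81 in Starve, and it was called in no KO, UT or H2O2 list. The eIF4G scaffolds had regions within the first 415 nt: EIF4G1 in 4 lists, EIF4G2 in 4 and EIF4G3 in 3. The helicase genes EIF4A1 and EIF4A2 were each called in Starve list 2 alone. EIF4E1B had no peak.

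Of the proteins that bind eIF4E and restrain it, EIF4EBP2 had a region at nt 60 to 343 of NM_004096 in 5 lists. Its folds were 2.57 in WT list 2, 1.39 and 1.75 in KO, and 3.33 and 4.45 in Starve. EIF4ENIF1, the nuclear importer of eIF4E, had a region at nt 25 to 253 of NM_001164502 with folds of 4.52 in WT list 2, 4.16 in UT list 2 and 7.23 in Starve list 2. EIF4EBP1 was called in 3 lists and EIF4EBP3 in none.

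EIF5A, which eases peptide bond formation at difficult sequences, was the member called in all 10 lists. Its region at nt 13 to 274 of NM_001970 had folds of 2.71 and 6.54 in WT, 5.35 and 5.37 in KO, 7.14 and 6.11 in UT, 5.20 and 5.18 in H2O2, and 7.81 and 4.53 in Starve. The WT values lay furthest apart, and each other condition had at least 1 value inside the WT range, so the conditions overlapped. The summit stayed between nt 164 and 182, and the pileup ran from 1416 to 5782. EIF5AL1, its near-identical copy, was called in 2 lists, and EIF5A2 and EIF6 in none.

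**Figure D3:**
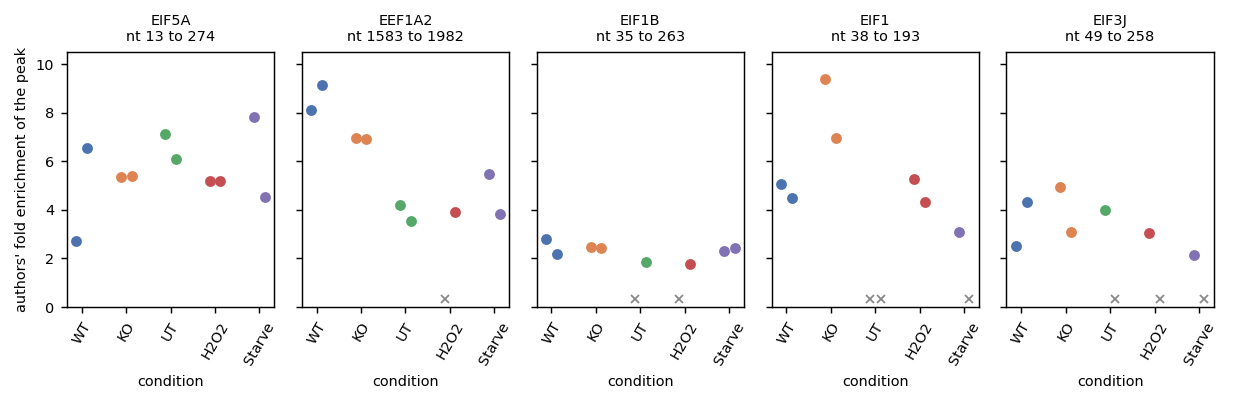
Fold enrichment (authors' value, linear axis) of the 5 member regions called in 7 or more lists; each circle is 1 list, coloured by condition, and a grey cross near the axis marks a list in which the region was not called. EIF5A has a circle in all 10 lists, EEF1A2 lacks 1 H2O2 list, and EIF1 lacks both UT lists.

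Among the elongation factors, 7 of 8 genes had a peak. EEF1A2, an aminoacyl-tRNA carrier, had a region far from the start, at nt 1583 to 1982 of NM_001958. Its folds were 8.10 and 9.14 in WT, 6.97 and 6.94 in KO, 4.21 and 3.56 in UT, 3.92 in H2O2 list 2, and 5.48 and 3.82 in Starve. A second region, at nt 63 to 343, was called in WT, KO and 1 UT list, with folds of 3.54 to 4.70. EEF1A1, the widely expressed form of the same protein, had no peak in any list. EEF2, which moves the ribosome by 1 codon, had a region at nt 17 to 227 of NM_001961, with folds of 2.85 in WT list 1, 6.57 and 4.87 in KO, 9.58 in H2O2 list 2 and 5.28 in Starve list 2. EEFSEC, which carries selenocysteine, was called in 6 lists, in 5 regions.

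Genes for enzymes that act on elongation factors were mostly without peaks. EEF2K, the kinase of eEF2, and EEF2KMT, its methyltransferase, had one, while EEF1AKMT1, EEF1AKMT2, EEF1AKMT3 and EEF1AKMT4 had none, nor had the readthrough gene EEF1AKMT4-ECE2. All 3 release factor genes had a peak. ETF1, which reads stop codons, had a region at nt 84 to 330 of NM_004730 in 6 lists, with folds of 2.04 to 5.39. GSPT1, its GTPase partner, had a region at nt 27 to 463 of NM_001130006. Its folds were 1.61 in WT list 2, 5.27 and 5.46 in KO, and 3.04 in Starve list 2. Of the poly(A)-binding proteins, PABPC1 and PABPC4 were called in 5 and 8 lists, and PABPC3 in 1. PABPC5, PABPC1L, PABPC4L, PABPC1L2A and PABPC1L2B had none.

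The comparison of KO with WT asked which sites depend on ALKBH3. A gene was counted as KO-only when a region of it lay in both KO lists and in neither WT list. Such regions were called on 5 of the 39 members with a region in either genotype (12.8%), against 18.9% of all genes with a region. WT-only regions were called on 3 members (7.69%), against 5.2% of all genes, and regions in all 4 lists on 7 members (17.9%), against 8.35%. Over all peaks the KO-only share of members lay below that of genes at large, and the share called in all 4 lists above it. With a fold of 4 or more in every peak the KO-only order was reversed, at 5 of 23 members (21.7%) against 17.6% of all genes. The ALKBH3 transcript itself had 0 peaks in every list, which leaves the knockout unchecked here.

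EEF2K carried the KO-only region at nt 54 to 308 of NM_013302, with folds of 4.48 and 10.2 and pileups of 78 and 178. EIF5 carried one at nt 260 to 469 of NM_001969, with folds of 13.2 and 9.47 and pileups of 1037 and 981, and had a peak elsewhere in 1 WT list. The region of EIF2S2 lay at nt 98 to 207 of NM_003908, with folds of 3.83 and 3.73. That of EIF3F, an eIF3 subunit, lay at nt 72 to 321 of NM_003754, with folds of 3.19 and 3.24, and its gene start is one of those with a pyrimidine run. PABPC1, the main cytoplasmic poly(A)-binding protein, had a region at nt 210 to 520 of NM_002568, with folds of 2.82 and 2.42 and pileups of 3536 and 3075. The 5 KO-only genes thus belong to 5 different groups of factors.

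WT-only regions lay on EEF1G, EIF4E2 and EIF4G2. EEF1G, a subunit of the exchange factor of eEF1A, had folds of 8.68 and 3.58 at nt 146 to 283 of NM_001404. EIF4E2 had folds of 6.91 and 6.72 at nt 111 to 241 of NM_001276337. EIF4G2, a scaffold that does not bind eIF4E, had folds of 4.32 and 2.61 at nt 125 to 341 of NM_001042559. None of the 3 had a peak elsewhere in KO. Regions in all 4 lists lay on EEF1A2, EIF1, EIF1B, EIF3J, EIF4E, EIF5A and PABPC4. These counts rest on few lists, and with a list left out the need for a region in both lists of that condition falls away. A region specific to the other condition then has to be absent from the remaining list only. Without the first KO list the KO-only count was 9 (25.7% of members, against 34.9% of all genes), without the second KO list 10 (28.6% against 33.0%) and without the second WT list 10 (28.6% against 33.6%). Without the first WT list the WT-only count was 7 (19.4% against 30.4%), and without the second 8 (22.9% against 23.6%). The rise thus appeared in members and in genes at large.

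Among 54 other genes of translation, which are not factors by the rule (initiation helpers, mitochondrial factors, kinases and poly(A)-binding partners), 47 had a peak and 22 had a region in KO or WT. KO-only regions lay on 6 of these 22: CYFIP2, DPH1, MTRF1L, PAIP2, SECISBP2 and TUFM. A WT-only region lay on 1, LARP4B. Over all genes with a region the shares were 18.9% KO-only and 5.2% WT-only, and 22 genes are few to set against them.

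Hydrogen peroxide was compared with UT to ask which sites stress induces. H2O2-only regions were called on 3 of 51 members (5.88%), against 2.33% of all genes. UT-only regions were called on 2 (3.92%), against 5.49%, and regions in all 4 lists on 1, EIF5A, against 2.65%. EIF1 was H2O2-only at nt 38 to 179 of NM_005801, with folds of 5.26 and 4.32 and pileups of 4076 and 3668. It was the best covered of the 3, and had no peak in UT. However, the same region was called in both WT lists, which are untreated wild-type cells too. EIF2AK4 was H2O2-only at nt 26 to 138, with folds of 2.35 and 5.19. It had a peak elsewhere in 1 UT list, and its region was also called in a WT list. EIF4G3, a scaffold related to eIF4G1, was H2O2-only at nt 219 to 338 of NM_001198802, with folds of 3.17 and 3.25. It had a peak elsewhere in both UT lists, and its region was also called in WT list 1, with a fold of 3.05.

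UT-only regions in this comparison lay on EIF4G1 and EIF5. EIF4G1 had folds of 3.81 and 13.4 and pileups of 41 and 112 at nt 89 to 245 of NM_001194946. EIF5 had folds of 3.23 and 3.94 and pileups of 67 and 47 at nt 981 to 1182 of NM_001969. Of the 54 other translation genes, 40 had a region, 0 were H2O2-only and 1 (MKNK1, a kinase of eIF4E) was UT-only. Over all genes with a region the shares were 2.33% and 5.49%. At a fold of 4 or more in every peak, 1 H2O2-only member was left (2.70% of members, against 2.02% of all genes). The H2O2-only count was 16 without the first H2O2 list (34.0% of members, against 21.7% of all genes) and 20 without the second (42.6% against 37.4%). The UT-only count was 24 without the first UT list (50.0% against 54.8%) and 14 without the second (32.6% against 48.8%).

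For serum starvation the control lists were again those of UT. Regions specific to Starve were called on 7 of 54 members (12.96%), against 5.34% of all genes. A UT-only region was called on 1 (1.85%), against 4.06%, and regions in all 4 lists on EEF1A2 and EIF5A, against 3.18%. Near the transcript start, EIF2D, an initiation factor for unusual mRNAs, had folds of 3.03 and 4.45 at nt 69 to 184 of NM_006893. EIF3G had folds of 3.12 and 9.66 at nt 49 to 211 of NM_003755. EIF4EBP2, the inhibitor of eIF4E that mTOR signalling controls, had folds of 3.33 and 4.45 at nt 63 to 192. ETF1 had folds of 2.83 and 6.05 at nt 84 to 259 of NM_001256302, although on another of its transcripts, NM_004730, 1 UT list held a peak in that region.

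EIF3B and EIF4E2 each had a Starve-only region in the 5′ part and another deep in a transcript. EIF3B had folds of 1.87 and 3.61 at nt 76 to 405 of NM_001037283, with summits at nt 150 and 360, and folds of 3.44 and 3.21 at nt 2889 to 3004. EIF4E2 had folds of 2.24 and 5.48 at nt 134 to 253 of NM_004846, and of 2.48 and 9.73 at nt 623 to 810. The deep region of EIF4E2 was Starve-only on NM_004846 alone, and that of EIF3B on NM_001037283 alone. EEF1D, a subunit of the exchange factor of eEF1A, had only a deep region, with folds of 4.47 and 3.71 at nt 867 to 978 of NM_001130053. EIF2D, EIF3B and EIF4E2 each had a peak elsewhere in 1 UT list. EIF4EBP2 was also called in WT list 2, and the 5′ regions of EIF3B and EIF4E2 in both WT lists. The ETF1 region was called in WT list 2 too, with a fold of 5.72 on NM_001256302. The 1 UT-only region was that of EIF5 at nt 981 to 1182. Of the 54 other translation genes, 44 had a region: 4 were Starve-only (DPH2, LARP4B, MTOR and PAIP1) and 2 UT-only (MKNK1 and UPF1). Over all genes with a region the shares were 5.34% and 4.06%.

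With every peak at a fold of 4 or more, 0 Starve-only members were left, against 3.78% of all genes. The Starve-only count thus lay above the H2O2-only count over all peaks, 7 against 3, and below it at that fold, 0 against 1. The Starve-only count was 32 without the first Starve list (62.7% of members, against 42.8% of all genes) and 25 without the second (53.2% against 51.0%). The UT-only count was 22 without the first UT list (41.5% against 42.4%) and 13 without the second (26.5% against 36.6%). Without Starve list 1 the UT-only count was 2 (3.92% against 7.39%). The comparisons of H2O2 and Starve with UT share the UT lists, so UT lists with few recurrent calls touch both.

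UT and WT are both untreated wild-type cells by their labels, so comparing them shows how far lists differ when genotype and treatment are the same. UT-only regions were called on 2 of 47 members (4.26%), against 6.58% of all genes, and WT-only regions on 5 (10.6%), against 2.98%. Regions in all 4 lists lay on EEF1A2 and EIF5A, 2 members, against 3.94%. The UT-only genes were EIF4G1 and EIF5. The WT-only genes were EEF1G, EIF1, EIF3B, EIF4E2 and PABPC4. The 5 WT-only members without a difference in label compare with 3 in H2O2 and 7 in Starve against the same UT lists. EEF1G, EIF1, EIF3B, EIF4E2, EIF4G1 and EIF5 each also had a specific region in another of the 4 comparisons, which share the UT or WT lists with this one. Of the 54 other translation genes, 34 had a region, of which 2 were UT-only and 1 was WT-only. The UT-only count was 25 without the first UT list (64.1% of members, against 69.1% of all genes) and 16 without the second (41.03% against 63.5%). The WT-only count was 8 without the first UT list (20.5% against 5.69%), 14 without the first WT list (31.1% against 15.5%) and 12 without the second (27.3% against 11.4%).

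Over all lists together, recurrent member regions lay near the transcript start more often than regions in 1 list. With 1 transcript per gene there were 165 member regions. Of the 49 regions in 2 or more lists, on 40 genes, 31 had their median summit within the first 300 nt. Of the 116 regions in 1 list, 17 did. This contrast pools all conditions, and within KO the order was the other way, as given below. Among regions in both lists of a condition, 9 of 12 in WT were near the start (75%, 95% exact Clopper-Pearson interval 42.8% to 94.5%), 14 of 20 in KO (70.0%, 45.7% to 88.1%) and 10 of 13 in Starve (76.9%, 46.2% to 94.96%). UT had 2 of 4 (50.0%, 6.76% to 93.2%) and H2O2 4 of 4 (100%, 39.8% to 100%). Over all genes the shares were 83.1% in WT, 76.1% in KO, 63.7% in Starve, 66.4% in UT and 73.3% in H2O2, each inside the members' interval. Intervals cover counting error only. With a limit of 150 nt in place of 300 nt the members' shares were 25.0% in WT, 40.0% in KO, 30.8% in Starve, 0% in UT and 50.0% in H2O2, and those of all genes 49.3%, 40.1%, 37.8%, 43.8% and 46.2%.

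Member regions in 1 list of a condition were near the start in 70.6% of cases in WT and 88.9% in KO, but in 39.6% in UT, 40.9% in H2O2 and 19.2% in Starve. Set beside regions in both lists, this share was similar in WT, higher in KO, and lower in UT, H2O2 and Starve. The median summit of member peaks was nt 153 to 196 in the 4 WT and KO lists and nt 280.5 to 1278 in the 6 others. Over all genes it was nt 166 to 219 and nt 369 to 841. The shift toward deeper peaks thus appeared in the members and in genes at large. It moved with the experiment, WT and KO against UT, H2O2 and Starve. The lists of the second experiment were also longer, with 3903 to 11362 peaks against 2175 to 3524, and these cannot be told apart.

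**Figure D4:**
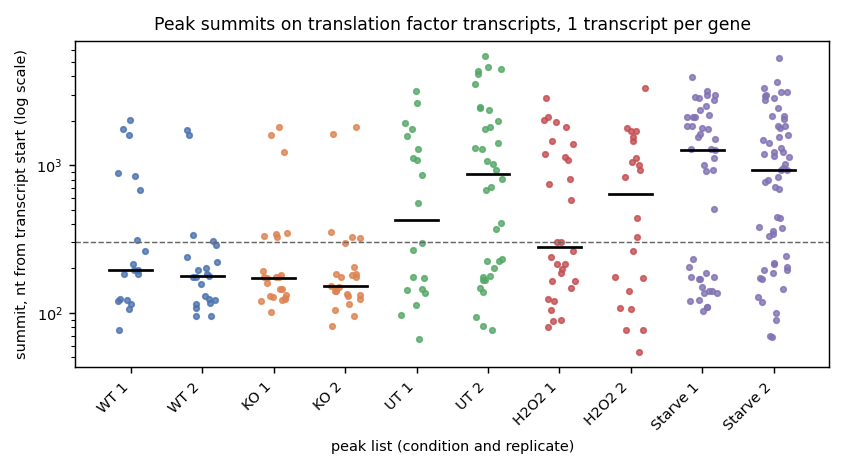
Summit of every member peak, in nt from the transcript start on a log axis, for 1 transcript per gene in each of the 10 lists; black bars are medians and the dashed line is at 300 nt. WT and KO summits gather below the line with medians of nt 153 to 196, and those of the UT, H2O2 and Starve lists spread far beyond it.

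By factor group the recurrent regions were few, at most 9 in a group, so the shares below are descriptions. Over all members 31 of 49 were near the start. All 5 recurrent regions on eIF2 and eIF2B genes were near the start, with a median summit at nt 170, as were 5 of 7 on eIF4 genes, 4 of 7 on start codon factors and 5 of 9 on eIF3 genes. On elongation factor genes 4 of 8 were, with a median summit at nt 569, since EEF1A2, EEF1D and EEFSEC carried deep regions. None of the 3 regions on PABPC1 and PABPC4 was, but the summits of 2 of them lay just past the limit, at nt 328 to 340 and nt 308 to 351. EIF5, with summits at nt 321 and 334 in KO, also lay just outside, and EIF4G3, at nt 262 to 300, just inside. The position is that on the transcript. Exons and untranslated regions are not given in the files, and no position of the start codon was used.

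In the WT and KO experiment, coverage was deposited for overlapping windows (10 nt wide, 1 every 5 nt) for immunoprecipitated RNA (IP) and for the same kind of RNA after demethylase treatment, scaled within each region. The comparison asked where demethylation changed the shape of the coverage around a site. Windows were present for 20 members: 17 in KO and 8 in WT, with EEF1A2, EIF1, EIF3J, EIF4E and EIF5A in both. Because the treated profile was the same in both files of a genotype up to a constant, it was counted as 1 profile and set against 2 IP libraries. The lone treated profile is assumed to vary like the IP libraries, and each window has 1 residual degree of freedom. At this size the test called 0 windows anywhere: 0 of 276 member windows on 8 genes and 0 of all 28056 windows (0%) in KO, and 0 of 219 member windows on 3 genes and 0 of all 12810 windows in WT (limma, adjusted p under 0.05). These counts of 0 do not show that the profiles were alike. At an unadjusted p under 0.05 there were 18 member windows in KO, 15 higher and 3 lower after treatment, which is 6.52% against 17.9% of all windows. In WT there were 105, 37 higher and 68 lower, which is 47.9% against 21.6% of all windows, or 78 of 184 (42.4%) with 1 transcript per gene. Neighbouring windows overlap, so they are not separate sites, and the WT windows rest on 3 genes. The ratio of treated to IP coverage within each file, which counts the treated profile in both files, called 28 member windows in KO (10.1%, against 13.8% of all windows) and 87 in WT (39.7% against 19.8%).

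The windows named next are those with the lowest p and are given as descriptions. In WT it belonged to EIF3B. At nt 76 to 85 of NM_001037283 its scaled coverage was 8.04 and 7.21 in the IP libraries and 0 in the treated profile (limma, adjusted p 0.123). The treated coverage of EIF3B lay further toward the 3′ side: its mean position was 38.4 and 38.2 nt downstream of that of the IP libraries, and its highest window was nt 171 to 180, at the end of the span, against nt 106 to 115 in IP. In KO the lowest p belonged to EIF1AX, at nt 41 to 50 of NM_001412. Coverage there was 1.67 and 1.52 in IP and 3.03 after treatment (limma, adjusted p 0.226). EIF3J had a lower value after treatment in KO at nt 243 to 252, with 5.48 and 5.94 in IP and 3.47 in the treated profile (limma, adjusted p 0.233).

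The mean position of coverage after treatment was set against that in IP for each member stretch covered in both genotypes. On EIF1 it differed by 3.84 and 2.55 nt in KO and by -2.48 and 1.61 nt in WT, positive values being toward the 3′ end. On EIF5A the difference was 0.134 and -3.44 nt in KO and -13.7 and -9.19 nt in WT. On EIF3J it was -0.479 and 6.02 nt in KO and -0.233 and -6.15 nt in WT. On EIF4E it was -3.52 and 0.375 nt in KO and 5.87 and 5.52 nt in WT. On the stretch of EEF1A2 near the start, at nt 22 to 282, it was 9.80 and 16.3 nt in KO and 7.46 and -2.55 nt in WT. On its deep stretch, at nt 1603 to 1937, it was -24.1 and -28.4 nt in KO and 31.0 and 24.8 nt in WT. Of the members covered in KO alone, EEF2K had differences of -46.6 and -27.6 nt and PABPC4 of -24.4 and -16.0 nt, while EIF5 had 1.36 and -3.01 nt. The stretch of GSPT1 at nt 282 to 466, also in KO alone, had -34.5 and -30.3 nt. EIF4G2, covered in WT alone, had 14.1 and 12.5 nt. Over all transcripts the median difference was 0.168 and -0.016 nt in KO and -0.54 and -4.44 nt in WT. The middle 50% of transcripts lay between -7.12 and 6.91 nt and between -7.10 and 6.79 nt in KO, and between -13.7 and 9.87 nt and between -18.8 and 7.89 nt in WT. The values of EIF1, EIF3J, EIF4E and EIF5A lay inside these ranges, that of EIF5A in the first WT file at the lower edge. Those of the deep EEF1A2 stretch lay outside them in all 4 files. Each pair of values shares 1 treated profile, so the 2 values are not independent.

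**Figure D5:**
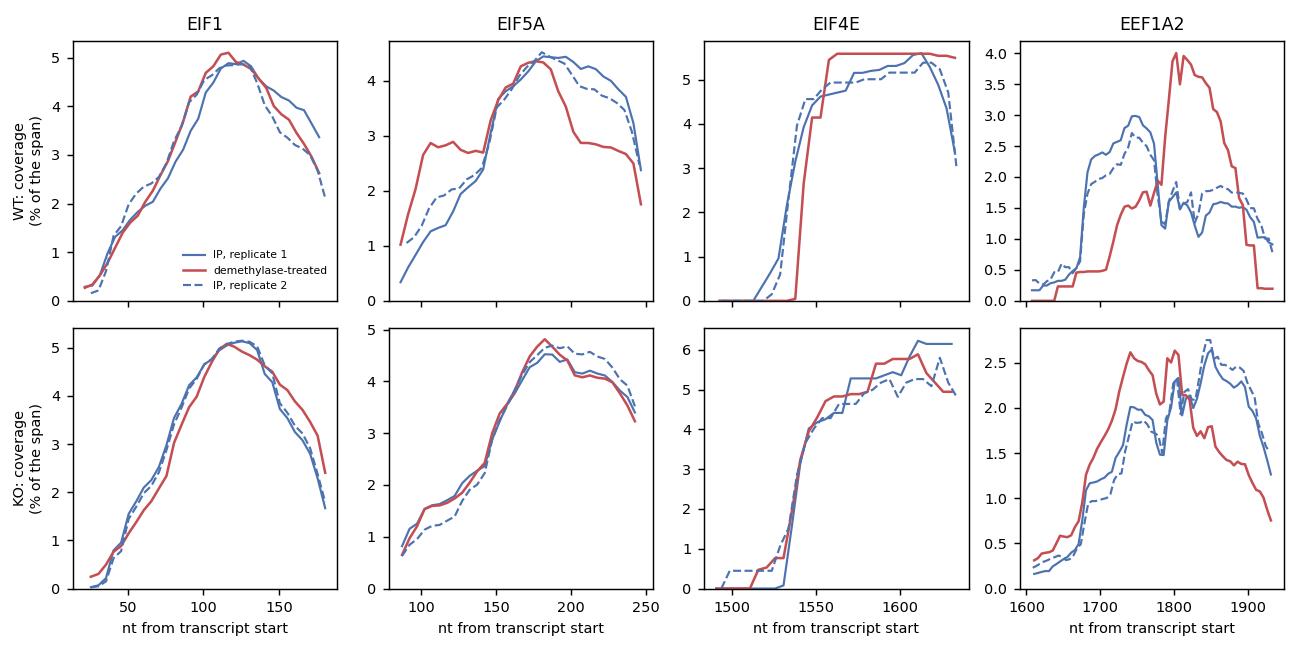
Scaled coverage in windows of 10 nt, as percent of the span, against nt from the transcript start for EIF1, EIF5A, EIF4E and the deep region of EEF1A2, with WT above and KO below; blue lines are the 2 IP libraries (solid and dashed) and the red line is the treated profile of that genotype. On EIF1 the treated profile differs in mean position by -2.48 to 3.84 nt, and on EEF1A2 the treated profile differs in mean position by 31.0 and 24.8 nt in WT and by -24.1 and -28.4 nt in KO.

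Peaks were also looked up for genes that mark cell types. All 6 genes chosen for HEK293 cells had a peak in some list: VIM and NEFM in 5 lists each, KRT8 in 3, and KRT18, PAX2 and NES in 1 each. Of 3 fibroblast genes 1 (COL1A1) had one, in 2 lists, and 0 of 2 leukocyte, 0 of 2 hepatocyte and 0 of 2 erythroid genes did. Over all protein-coding genes, 8841 of 20056 had a peak in some list, so these few genes tell cell types apart poorly. A missing peak does not show that the RNA was absent.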

How the data were processed

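The series holds 24 libraries in 12 groups of 2 replicates, of which 10 peak lists and 4 windowed files were used, with no column left out. Tools named in the submitters' processing notes are HISAT, MACS2 and Trim Galore, without versions, and the build is hg19. Peaks were called per replicate with MACS2, per the file headers, on RefSeq transcripts, so coordinates are positions on a transcript. The sources used here do not name the input library that served as control, and total reads per library are not known, so depth is given as the pileup. Pileup, as deposited, is the coverage signal under a summit. The fold enrichment of a peak is a deposited ratio to local background, and only served to describe or filter peaks inside 1 list. For every peak the authors also deposited a −log10 p-value, which was not used, and a −log10 q-value, by which 1 alternative ranked peaks. The windowed files hold coverage that the authors had scaled within each region, and a deposited score equal to treated minus IP coverage, which was not used.

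Lists were assigned by file name. Descriptions of the untreated libraries name the starved lists instead, and peak names in the UT lists carry the letters WT, so every UT value rests on the file names. Symbols came from a RefSeq table of GRCh38.p14, used for names and gene starts: 17019 of 17315 transcripts matched (98.3%). The members, factor groups, other translation genes, markers and the limit of 300 nt were chosen with earlier results of these data known. Named genes are those with a specific region, with a region in 7 or more lists, with windows, or with no peak; further regions in 3 or more lists were named after their values were seen.

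Overlapping peaks (1 nt or more) were merged into regions per transcript. A gene was called specific to a group when a region lay in both its lists and in neither of the other's. Isoforms repeat a signal, so genes were counted, and positions used 1 transcript per gene. The procedures were tested on simulated data. For the windows, the design called for limma on log2 ratios (treated to IP). The treated profile was constant in ratio between the 2 files of a genotype in 782 of 782 runs of windows in KO and 362 of 362 in WT (tolerance 0.001 of the median), against 0 of 778 and 0 of 355 for IP. So limma (3.58.1, R 4.3.3) was fitted across all windows on log2(coverage + 1) with 1 treated profile and 2 IP libraries, adjusted by Benjamini-Hochberg, and the ratio fit was kept as an alternative. Alternatives were a minimum fold of 4, an overlap of 50 nt, equal numbers of top peaks, calls by gene, leaving out a list, a limit of 150 nt, all transcripts, other pseudocounts and a coverage minimum of 2. Tables were made with Python 3.11.15 and pandas 2.3.3.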

Additional observations from a re-analysis of the deposited data

Results flagged for a closer look

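The deep region of EEF1A2, from nt 1603, had differences between treated and IP coverage of opposite sign in the 2 genotypes. After demethylase treatment its mean position of coverage differed from that of the IP libraries by -26.2 nt on average in KO and by 27.9 nt in WT, which is -54.1 nt for KO minus WT. Both IP libraries of each genotype gave the same direction, but each pair shares 1 treated profile. The IP libraries themselves differed between the genotypes, with mean positions of nt 1779 and 1785 in WT and nt 1807 and 1811 in KO. The treated mean was nt 1810 in WT and nt 1783 in KO. The highest treated window was nt 1798 to 1807 in WT, and nt 1796 to 1805 and nt 1799 to 1808 in the KO files. The difference between the genotypes was not tested. Of 6 member stretches covered in both genotypes, this was the 1 whose differences had opposite signs in the 2 genotypes over all 4 files.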

How the results depend on the processing

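Of 32 alternative values for the 8 counts of specific member genes, not counting those that leave out a list, 19 stayed within 1.5 times and 13 did not. Of 32 further values with a list left out, 13 stayed within 1.5 times and 19 did not, and in each of those 19 the count and the share over all genes were both higher than with every list. The KO-only count of 5 ranged from 4 to 6 and the WT-only count of 3 in that comparison from 2 to 3. With a fold of 4 or more, the H2O2-only count was 1 (all genes 2.02%) and the Starve-only count 0 (3.78%), and the UT-only counts were 0 against H2O2, 0 against Starve and 0 against WT. With an overlap of 50 nt the UT-only counts were 1, 0 and 1 in that order, and with equal numbers of top peaks 0, 2 and 0. Called by gene, UT against WT gave 4 UT-only and 3 WT-only members. Leaving out a list dropped the need for both lists of its own group. For regions specific to the other group, it left only the remaining list from which the region had to be absent. This gave 7 to 10 KO-only and 3 to 8 WT-only members, 3 to 20 H2O2-only and 2 to 24 UT-only, 8 to 32 Starve-only and 1 to 22 UT-only, and, for UT against WT, 2 to 25 UT-only and 7 to 14 WT-only. With a limit of 150 nt, 25.0% of recurrent member regions in WT, 40.0% in KO, 0% in UT, 50.0% in H2O2 and 30.8% in Starve were near the start. For the windows, the ratio fit, added after the data were seen, called 28 member windows in KO (all windows 13.8%) and 87 in WT (all windows 19.8%), where pseudocounts of 0.5 and 5 and the coverage minimum called 0. No paired analysis was possible because the peak lists carry no test, and 0 of the 2922 windows shared by all 4 windowed files lay on a member; the other settings listed for KO against WT windows were therefore not run. Leaving out an IP library leaves no residual degrees of freedom.

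Member peaks had median pileups of 245 to 321 in the WT and KO lists and of 52 to 279.5 in the UT, H2O2 and Starve lists. No interval can be given for a region that was not called.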
